A study of Rattus norvegicus with 9 samples.

Results

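Genes of 10 matricellular and provisional matrix proteins were followed in rat hearts 28 days after myocardial infarction (MI): Fn1, Postn, Thbs1, Thbs2, Thbs4, Tnc, Cthrc1, Spp1, Sparc and Smoc2. They were chosen by name from the FPKM table (fragments per gene length and a scale set for each library). Each name had a single row there, so the set holds 10 of 35843 genes. All 10 passed the filter on low values (FPKM 1 or more in 3 or more rats of the fit) in every comparison. The animals were adult male Sprague-Dawley (SD) rats, 3 samples per group. Each sample title carries 2 names, and whether these are 2 runs or 2 pooled samples is not stated, so that 1 sample is taken as 1 rat. Group Sham had surgery without an infarct and saline by daily gavage for 28 days, group MI had the left anterior descending (LAD) coronary artery tied and the same saline, and the rats of group MI + DAPA (1st d), called group DAPA here, had the ligation and 1 mg/kg of the SGLT2 inhibitor dapagliflozin each day from day 1. The labels give the tissue as heart. The study's methods name the left ventricle for RNA and, for most molecular work, the infarct border with the scar cut away. Its results, in contrast, call the sequenced tissue normal myocardium in group Sham and infarct myocardium in the infarcted groups. How much scar each piece held is not stated, which limits the infarcted groups as a model of border tissue.

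Matricellular proteins are secreted into the extracellular matrix, where they act on cell behaviour through receptors rather than as load-bearing fibres. The provisional matrix is the early scaffold of fibrin and fibronectin that fills an injured site before fibrillar collagen replaces it. In the healthy adult heart most of these proteins are scarce, and after an infarct fibroblasts, myofibroblasts and macrophages are known to make them.

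Between 13599388 and 17212027 reads per rat were recovered from the FPKM values. The library scale held in those values was not this total. It was 8806260 to 10465948 in the Sham rats, 17659539 to 19323879 in the MI rats and 16061736 to 18090143 in the DAPA rats. Genes of the mitochondrial genome took 61.1% to 66.9% of the recovered reads in the Sham rats, 7.07% to 19.1% in the MI rats and 17.5% to 32.0% in the DAPA rats. This left 5703572 to 6571953 reads for other genes in the Sham rats and 11442302 to 13174077 in the infarcted rats. The 10 cardiomyocyte markers found in the table were present in every group, with a summed level of 2104 to 16933 FPKM per rat. When every library was instead scaled to the same sum of FPKM, the median log2 fold change of all genes tested in MI vs. Sham moved from -0.01 to 1.31, and the calls from 1634 higher and 1390 lower to 8801 higher and 220 lower. Members are therefore also given relative to that shift.

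Promoter sequences were found for 6 of the 10 genes in RefSeq (rat build GRCr8, 250 bases before and 50 from the annotated start on). They are Postn, Spp1, Thbs1, Thbs4, Tnc and Sparc, matched by symbol. Of these, 3 are shown, which belong to a member called higher after infarction (Postn), to a thrombospondin (Thbs1) and to the most abundant member (Sparc). Capitals mark the motifs found by letter search on both strands: TATAAA in Postn, GGAATG (the TEAD core) in Thbs1 and, as its reverse complement CATTCC, in Sparc, and the reverse complement of TGTGGT (the RUNX core), ACCACA, in Sparc.
Postn (chr2:140677811-140678110, plus strand): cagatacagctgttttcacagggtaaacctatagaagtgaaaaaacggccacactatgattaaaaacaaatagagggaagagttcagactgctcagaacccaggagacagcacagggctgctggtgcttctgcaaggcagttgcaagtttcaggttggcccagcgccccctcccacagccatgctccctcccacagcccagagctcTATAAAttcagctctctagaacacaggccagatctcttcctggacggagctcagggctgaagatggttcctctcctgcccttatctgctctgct
Thbs1 (chr3:125510000-125510299, plus strand): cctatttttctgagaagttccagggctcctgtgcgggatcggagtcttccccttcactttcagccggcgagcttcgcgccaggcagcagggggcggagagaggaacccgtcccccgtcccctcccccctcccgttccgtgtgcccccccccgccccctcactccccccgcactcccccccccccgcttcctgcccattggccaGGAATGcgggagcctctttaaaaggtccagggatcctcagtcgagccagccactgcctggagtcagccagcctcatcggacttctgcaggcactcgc
Sparc (chr10:40038767-40039066, minus strand): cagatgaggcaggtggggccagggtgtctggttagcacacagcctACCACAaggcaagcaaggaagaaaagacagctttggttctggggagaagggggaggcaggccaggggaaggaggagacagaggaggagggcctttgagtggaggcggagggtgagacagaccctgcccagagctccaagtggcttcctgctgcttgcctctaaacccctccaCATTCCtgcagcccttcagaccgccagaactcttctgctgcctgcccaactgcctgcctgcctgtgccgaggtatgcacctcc
The TATAAA of Postn lies at bases -44 to -39 from the start, the GGAATG of Thbs1 at -47 to -42 and the CATTCC of Sparc at -33 to -28. GGAATG was found in 3 of the 6 promoters (Thbs1, Thbs4 and Sparc) and in 14.2% of all 33469 promoters of the same length. TATAAA was also in 3 of 6 (Postn, Spp1 and Tnc), against 14.2% of all. The matches of Spp1 and Tnc lay further from the start, at -204 to -199 and -208 to -203, as did the CATTCC of Thbs4 at -178 to -173. TGTGGT was in 1 of 6 against 17.3%, while TGANTCA (AP-1) and the CArG box were in 0 of 6 against 7.33% and 1.64%. None of these matches overlapped another, and a match of letters does not show that a factor binds there. GC content lay between 48.7% in Spp1 and 70.0% in Thbs4, with a median of 51.7% over all promoters.

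The first question was which of these genes differ between infarcted and sham-operated hearts. In MI vs. Sham, 7 of the 10 genes were called higher, at an unadjusted limma p under 0.05 and a log2 fold change over 1: Postn, Thbs4, Cthrc1, Fn1, Thbs1, Thbs2 and Smoc2. The background for such a call was 12.1% of the 13485 genes tested, and 11.5% at an adjusted p under 0.05, under which the same 7 genes were called. Every MI rat was above every Sham rat for 8 members, these 7 and Sparc, against 27.1% of all genes tested. The difference was positive for all 10, with a median of 2.74 on the log2(FPKM + 1) scale against -0.01 over all genes tested. With all libraries scaled to the same sum all 10 were called, as were 8801 of the 13485 genes tested, and their median stood 2.82 above the median of all genes.

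**Figure D1:**
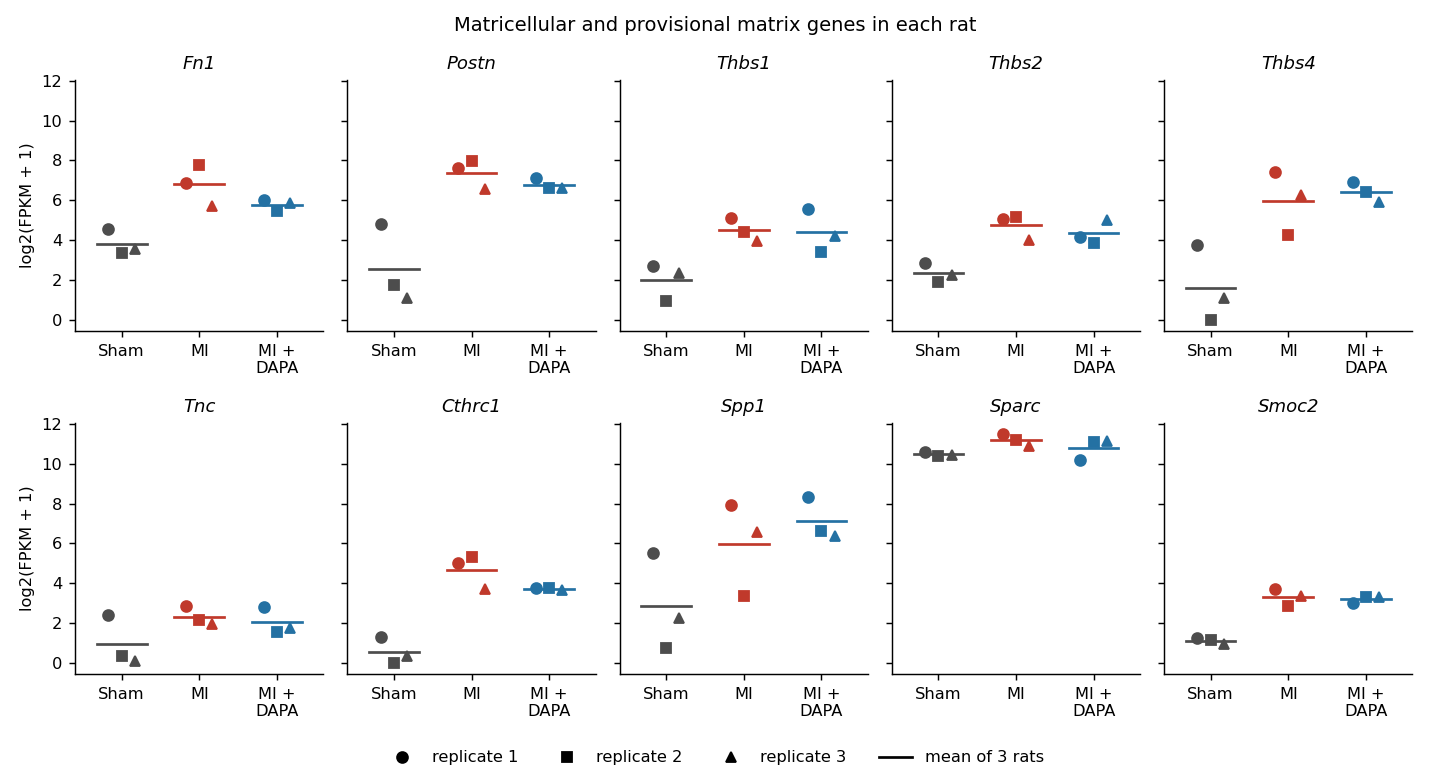
Level of each gene in each rat as log2(FPKM + 1), with 1 panel per gene, 1 symbol per replicate number and a line at the mean of the 3 rats of a group. The Sham rats lie lowest in most panels, and the circle, Sham replicate 1, is the highest Sham rat in all 10.

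Fibronectin (Fn1, ENSRNOG00000014288), the cell-binding glycoprotein of the provisional matrix, stood at 22.3, 9.36 and 10.6 FPKM in Sham replicates 1 to 3. The MI rats had 116, 220.0 and 52.0 FPKM, and the DAPA rats 64.5, 43.0 and 56.9. Both infarcted groups lay wholly above the Sham rats. Fn1 rose in MI vs. Sham by 2.98 ± 0.54 on the log2 scale (SE, n = 3 per group, adjusted p = 0.00598), a 9.16-fold difference of mean FPKM.

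Periostin (Postn, ENSRNOG00000012660), which fibroblasts secrete when activated and which aids collagen assembly, had the largest difference of the 10 on the log2(FPKM + 1) scale. Its level was 27.4, 2.38 and 1.16 FPKM in group Sham, 196, 251 and 92.3 in group MI, and 139, 96.4 and 95.9 in group DAPA. The log2 fold change in MI vs. Sham was 4.82 ± 0.92 (SE, n = 3 per group, adjusted p = 0.00744), and mean FPKM differed 17.4-fold. That order rests on the pseudocount of 1, since the folds of mean FPKM were larger for Cthrc1 (46.5) and Thbs4 (19.3), and with a pseudocount of 0.1 the log2 fold changes were 5.97 for Cthrc1, 5.74 for Thbs4 and 5.23 for Postn. Sham replicate 1 alone, with 927 reads against 79 and 33 in the others, carried most of the Sham mean of 10.3 ± 14.8 FPKM (SD, n = 3).

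The thrombospondins bind cells, calcium and other matrix proteins, and Thbs1 is known as an activator of latent TGF-β. Thbs1 (ENSRNOG00000045829) was at 5.41, 0.933 and 4.01 FPKM in the Sham rats, 33.1, 20.3 and 14.6 in the MI rats and 46.5, 9.57 and 17.2 in the DAPA rats. For Thbs2 (ENSRNOG00000010529), a thrombospondin known from collagen fibril assembly, the values were 6.22, 2.77 and 3.81, then 32.1, 34.5 and 14.9, then 17.0, 13.5 and 30.8 FPKM in the same order. The infarcted rats did not overlap the Sham rats in either gene, and the log2 fold changes in MI vs. Sham were 2.50 ± 0.48 for Thbs1 (SE, adjusted p = 0.00752) and 2.39 ± 0.37 for Thbs2 (SE, adjusted p = 0.00359), n = 3 per group.

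Thbs4 (ENSRNOG00000012471), a pentameric thrombospondin of muscle and tendon, varied widely within groups, though less than Spp1. Its level was 12.5, 0 and 1.13 FPKM in group Sham, from 423, 0 and 32 reads. In the rat without a read, the 3 reads that a count of 0 allows are 1.75e-05% of the library, counting error alone considered. Group MI had 169, 18.1 and 77.1 FPKM and group DAPA 119.8, 84.3 and 59.9. Although the MI rats spanned 9.33-fold, all were above the Sham rats, and Thbs4 rose by 4.37 ± 1.09 on the log2 scale (SE, n = 3 per group, adjusted p = 0.0191).

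Cthrc1 (ENSRNOG00000004578), a secreted protein of activated fibroblasts that limits collagen deposition, was nearly undetected in group Sham. There it had 19, 0 and 3 reads, or 1.49, 0 and 0.280 FPKM. The MI rats had 31.2, 39.2 and 12.0 FPKM, and the DAPA rats 12.6, 12.5 and 11.5. Cthrc1 rose in MI vs. Sham by 4.12 ± 0.50 on the log2 scale (SE, n = 3 per group, adjusted p = 0.00173). The 3 treated rats lay within 1.10-fold of each other, with an SD of 0.648 FPKM against 14.0 FPKM in group MI.

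Smoc2 (ENSRNOG00000014166), a calcium-binding relative of Sparc, had the smallest SE of the called genes. Sham rats had 1.38, 1.25 and 0.910 FPKM, MI rats 12.2, 6.25 and 9.38, and DAPA rats 7.17, 8.90 and 9.02. The log2 fold change in MI vs. Sham was 2.20 ± 0.25 (SE, n = 3 per group, adjusted p = 0.00148), with the smallest adjusted p of the 10 genes.

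Osteopontin (Spp1, ENSRNOG00000043451), an integrin and CD44 ligand made by macrophages among others, did not pass the test in MI vs. Sham. Its levels were 45.2, 0.705 and 3.74 FPKM in the Sham rats, 242, 9.43 and 93.1 in the MI rats and 325, 98.9 and 82.9 in the DAPA rats. MI replicate 2 lay below Sham replicate 1, and the MI rats spanned 25.6-fold. The difference was 3.11 ± 1.46 on the log2 scale (SE, n = 3 per group, 95% interval -0.33 to 6.55, adjusted p = 0.133). Without Sham replicate 1 it was 4.45 and without MI replicate 2 it was 4.39, and Spp1 was called in both cases, as it was with all 9 rats in 1 fit. The difference fell to 2.07 without Sham replicate 2 and to 2.12 without MI replicate 1, and Spp1 was not called in either case.

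Tenascin-C (Tnc, ENSRNOG00000058645), an anti-adhesive glycoprotein of wounds and infarct borders, was the least abundant member in the infarcted groups. The Sham rats had 4.38, 0.297 and 0.063 FPKM, the MI rats 6.17, 3.49 and 2.92, and the DAPA rats 6.05, 1.92 and 2.37. Sham replicate 1 lay above 2 of the 3 MI rats, and the difference of 1.36 ± 0.61 on the log2 scale (SE, n = 3 per group, 95% interval -0.07 to 2.80, adjusted p = 0.117) did not pass. It was 2.10 without Sham replicate 1, and Tnc was then called, as it was with all 9 rats in 1 fit. Without Sham replicate 3 it was 0.93, and Tnc was not called.

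Sparc (ENSRNOG00000012840), a collagen-binding protein that vessels and fibroblasts make in the resting heart, was by far the most abundant member. It stood at 1538, 1342 and 1394 FPKM in Sham rats, 2840, 2349 and 1898 in MI rats and 1163, 2148 and 2231 in DAPA rats. Every MI rat was above every Sham rat, but the difference of 0.71 ± 0.22 (SE, n = 3 per group, adjusted p = 0.0409) stayed under the fold threshold. With libraries scaled to the same sum it was 2.27, against a shift of 1.31 in all genes, and Sparc was called. Sparc alone made up 92.4% to 98.7% of the summed FPKM of the 10 genes in the Sham rats, 77.2% to 83.8% in the MI rats and 61.2% to 85.9% in the DAPA rats. The 9 other genes together held 126, 17.7 and 25.7 FPKM in the Sham rats, 838, 603 and 368 in the MI rats and 738, 369 and 366 in the DAPA rats.

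FPKM is per length, so the genes can also be put in order within a group. In group Sham, Sparc stood apart, and the other 9 overlapped their neighbours in the order of mean FPKM, from Spp1 at 16.6 ± 24.9 (SD, n = 3) to Cthrc1 at 0.591 ± 0.794 (SD, n = 3). In group MI the order was Sparc, Postn, Fn1, Spp1, Thbs4, Cthrc1, Thbs2, Thbs1, Smoc2 and Tnc. Sparc was again apart from the second gene, and Thbs1, Smoc2 and Tnc did not overlap each other. Group DAPA had Spp1 in second place at 169 ± 135 FPKM (SD, n = 3), overlapping Postn at 110 ± 24.9 (SD, n = 3). Cthrc1, which was in sixth place in group MI among overlapping neighbours, came eighth there, below Thbs2 and without overlap.

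The rats within a group also had an order. Sham replicate 1 was the highest Sham rat for 10 of the 10 genes, whereas it was highest for 34.0% of all genes tested in MI vs. Sham. MI replicate 3 was the lowest MI rat for 7 members and the highest for 0, against 35.6% and 31.2% of the same genes tested. MI replicate 2 was highest for Postn, Thbs2, Cthrc1 and Fn1 (39.1% of genes tested) and lowest for Spp1, Thbs4 and Smoc2 (37.1%). Among treated rats, replicate 1 was highest for 7 members (28.8% of genes tested) and lowest for Sparc and Smoc2 (31.6%).

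**Figure D2:**
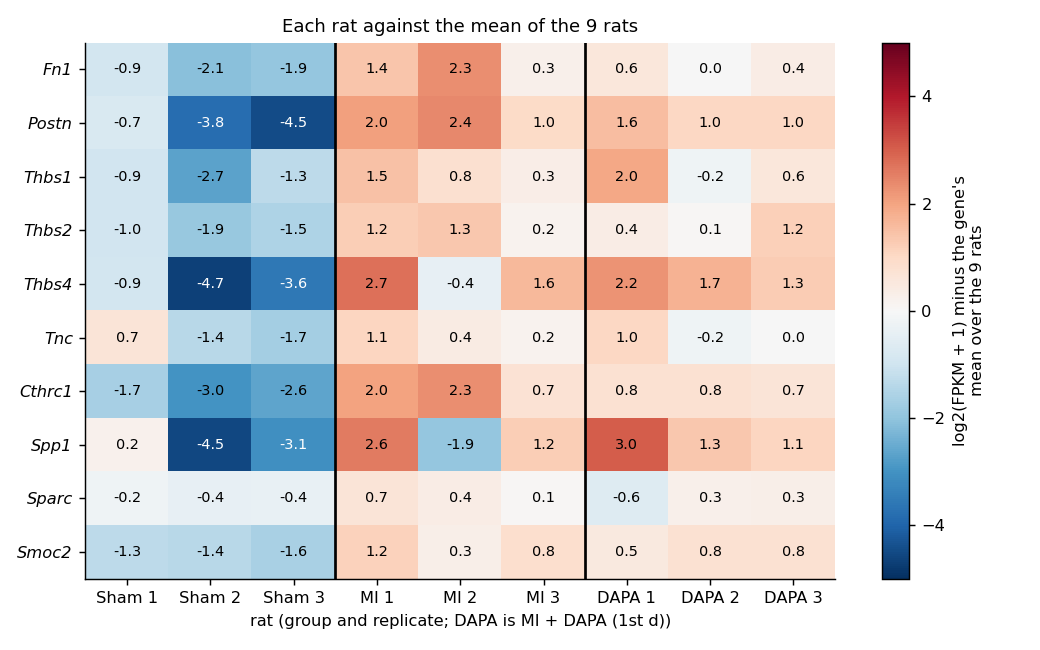
Heat map of each gene (rows) in each rat (columns), coloured by log2(FPKM + 1) minus the mean of that gene over the 9 rats; black lines separate the groups. MI replicate 2 stands out from the other MI rats for Spp1 and Thbs4, and Sham replicate 1 has the highest value of the Sham rats in all 10 rows.

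Summed marker levels followed some of these orders, and their part in the results was not tested. The 11 fibroblast markers found summed to 326, 206 and 217 FPKM in the Sham rats, 1997, 2294 and 1336 in the MI rats and 1125, 1275 and 1748 in the DAPA rats. Of the 11, 10 were called higher in MI vs. Sham and 0 lower, with Pi16 at 4.10, Thy1 at 3.67 and Islr at 3.59 on the log2 scale. All 14 macrophage markers were found, with sums of 377, 198 and 194 FPKM, then 1123, 1929 and 1069, then 887, 646 and 1202 in the same order. Of the 14, 12 were called higher in MI vs. Sham and 0 lower, Gpnmb by 4.22, C1qb by 3.22 and C1qa by 3.12. Sham replicate 1 was thus the highest Sham rat in both lists and MI replicate 3 the lowest MI rat in both. DAPA replicate 1, the highest treated rat for 7 members, was highest in neither list and lowest for the fibroblast markers. In bulk tissue, fewer cells of a type and less RNA per cell cannot be told apart.

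MI replicate 2 also had the lowest summed level of the cardiomyocyte markers, 2104 FPKM against 5584 and 10427 in the other MI rats, and the highest of the lymphocyte markers, 3133 FPKM against 78.3 and 584. The Sham rats held 7021 to 10314 FPKM of cardiomyocyte markers and 6.03 to 18.0 FPKM of lymphocyte markers. Whether these levels bear on the low Spp1 and Thbs4 of that rat was not tested. Of the 6 smooth muscle and myofibroblast markers, 1 was called higher in MI vs. Sham (Des, by 1.74) and 0 lower, with overlapping sums of 400 to 1566 FPKM in group Sham and 777 to 1441 in group MI. Des was the only 1 of the 6 with a positive difference, and the median of the list was -0.43. Of the 9 endothelial markers tested, 7 were called lower, Egfl7 by -2.55, Kdr by -1.91 and Emcn by -1.74, and their sum went from 1156 to 1401 FPKM in group Sham down to 334 to 434 in group MI. With libraries scaled to the same sum, 1 endothelial marker was called higher and 1 lower, and the median of the list turned from -1.43 to 0.07, below the shift of all genes.

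**Figure D3:**
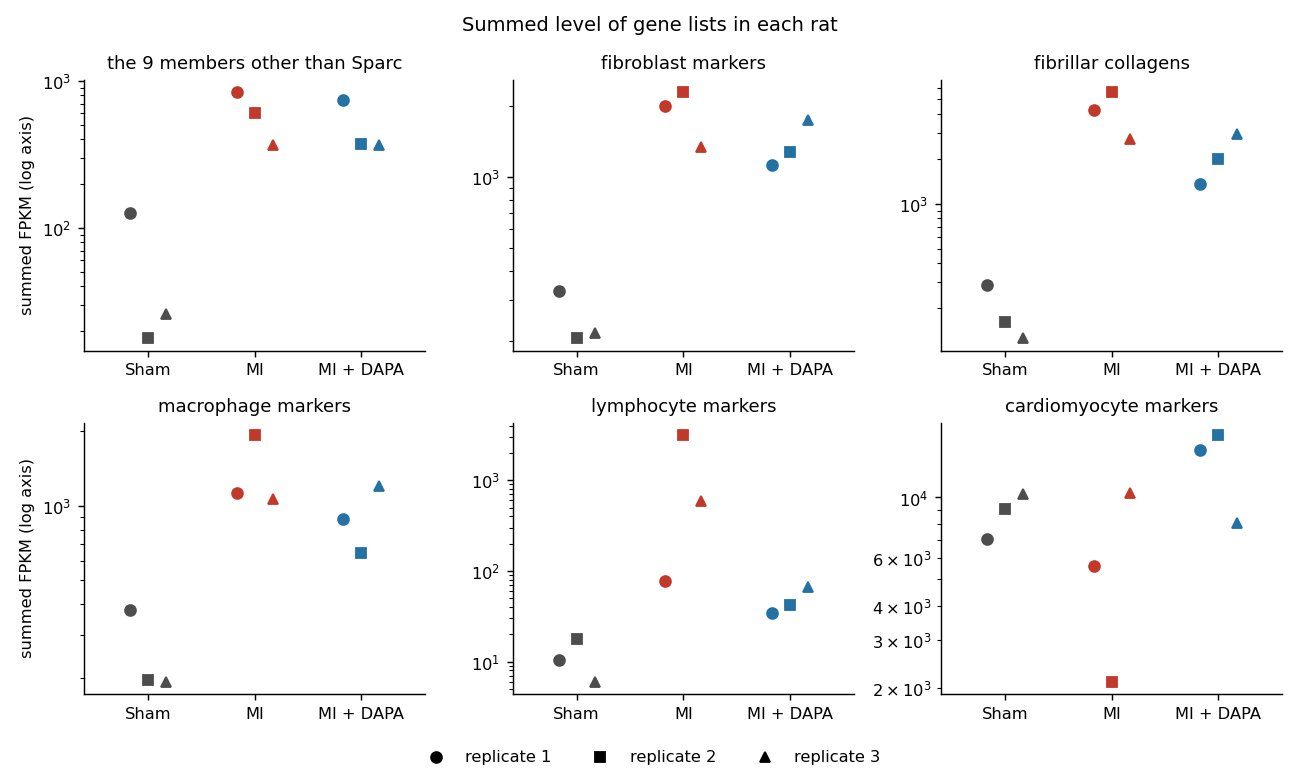
Summed FPKM (log axis) in each rat of the 9 genes other than Sparc and of 5 lists, with 1 symbol per replicate number. Fibroblast markers, fibrillar collagens and macrophage markers separate the Sham rats from the infarcted rats, while MI replicate 2 is lowest in cardiomyocyte markers (2104 FPKM) and highest in lymphocyte markers (3133 FPKM).

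Each gene was then set against the mean log2(FPKM + 1) of the fibroblast markers of the same rat. On this scale the 10 genes were no longer all higher in group MI: 6 were above and 4 below their Sham mean, with a median difference of 0.33. Cthrc1 was 1.71 higher in MI vs. Sham relative to the markers, with every MI rat above every Sham rat, and its difference relative to the fibrillar collagens was 1.01, again without overlap. Postn was 2.40 higher relative to the fibroblast markers, but the groups overlapped. Sparc was 1.70 lower and Tnc 1.05 lower, each without overlap. Thbs1, Thbs2 and Smoc2 differed by 0.09, -0.03 and -0.21, and overlapped. In DAPA vs. Sham, Thbs4 was 2.74 and Cthrc1 1.10 higher relative to the markers and Sparc 1.75 lower, each without overlap, while the other 7 genes overlapped. Relative to the fibrillar collagens, Thbs4 (2.33) and Cthrc1 (0.69) overlapped in that comparison, and Sparc (-2.15) did not. The smallest p that an exact permutation test allows for 3 rats against 3 is 0.1, so no such difference could pass at 0.05.

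**Figure D4:**
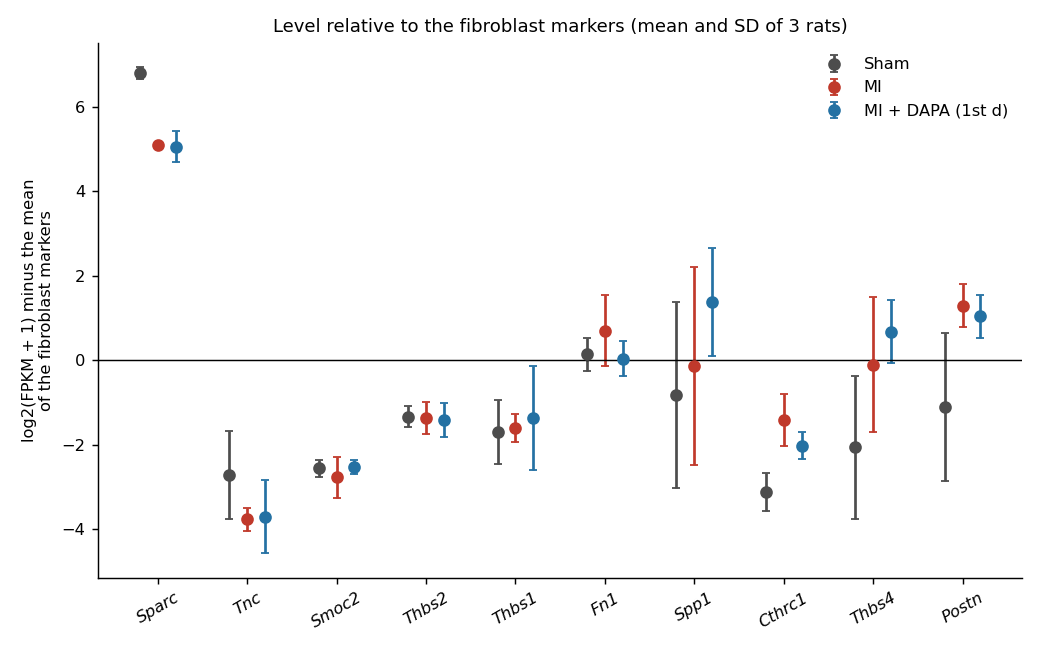
Level of each gene as log2(FPKM + 1) minus the mean of the fibroblast markers in the same rat, with the mean and SD of 3 rats per group. Sparc and Tnc lie lower in group MI than in group Sham, Cthrc1 lies higher, and Thbs1, Thbs2 and Smoc2 stay near their Sham level.

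The next question was whether the members differ between treated and untreated infarcted rats. In DAPA vs. MI, 0 of the 10 genes were called lower and 0 higher by limma, where 1.11% of the 13251 genes tested were called lower. One member, Cthrc1, had an unadjusted p under 0.05, against 3.90% of all genes tested with such a p and a lower level. All 10 overlapped between the groups, while for 7.16% of the genes tested every treated rat was below every MI rat. The smallest adjusted p among the members was 0.558. Of the differences, 8 were negative and 2 positive, with a median of -0.34 on the log2 scale against -0.02 over all genes tested.

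Fn1 and Cthrc1 had the most negative differences. Fn1 averaged 54.8 ± 10.9 FPKM in group DAPA and 129 ± 84.8 in group MI (SD, n = 3), a difference of -1.01 ± 0.49 on the log2 scale (SE, 95% interval -2.17 to 0.15, adjusted p = 0.558). Cthrc1 averaged 12.2 ± 0.648 and 27.5 ± 14.0 FPKM (SD, n = 3), a difference of -0.96 ± 0.40 (SE, 95% interval -1.90 to -0.01, adjusted p = 0.558). MI replicate 3 lay among the treated rats in both genes, at 52.0 and 12.0 FPKM, and the other MI rats were above all 3 of them. Without MI replicate 3, 3 members were called lower: Fn1 by -1.55, Cthrc1 by -1.45 and Postn by -1.02. In that fit 153 of the 12903 genes tested were called lower and 408 higher. Without MI replicate 2 the same differences shrank to -0.52, -0.63 and -0.31, and 0 members were called lower. MI replicate 3 had the lowest fibroblast marker sum of its group, 1336 FPKM, and the highest cardiomyocyte marker sum, 10427 FPKM. MI replicate 2 had the highest fibroblast marker sum, 2294 FPKM, and the lowest cardiomyocyte marker sum, 2104 FPKM. The part of these sums in the differences was not tested. With all libraries scaled to the same sum, Fn1 and Cthrc1 were called lower, by -1.38 and -1.33, against a shift of -0.35 in all genes tested, where calls went from 126 higher and 147 lower to 44 higher and 492 lower.

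Postn differed by -0.60 ± 0.38, Sparc by -0.39 ± 0.37, Thbs2 by -0.39 ± 0.40 and Tnc by -0.29 ± 0.38 on the log2 scale (SE, n = 3 per group). The 95% interval for Postn, -1.51 to 0.30, still holds a decrease of more than 1 on that scale, so the test does not show equal levels. For Smoc2 the difference was -0.10 ± 0.23 with an interval of -0.65 to 0.46, the narrowest of the 10. Thbs1 differed by -0.10 ± 0.56 (95% interval -1.43 to 1.22). Spp1 and Thbs4 had positive differences of 1.17 ± 1.14 and 0.44 ± 0.75, and both became negative without MI replicate 2, at -0.11 and -0.43. Relative to the fibroblast markers all 10 genes overlapped between treated and untreated rats, with 5 positive differences and a median of 0.01.

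In DAPA vs. Sham, 8 of the 10 genes were called higher, all but Tnc and Sparc. All 8 also had an adjusted p under 0.05. The background was 9.54% of the 13359 genes tested, or 8.74% at an adjusted p. The same 8 genes had every treated rat above every Sham rat, against 23.2% of all genes. Both comparisons with group Sham use the same 3 Sham rats, so their values are given side by side and no agreement between them is counted. The log2 fold change was 4.80 ± 0.84 for Thbs4 (4.37 in MI vs. Sham), 4.28 ± 1.12 for Spp1 (3.11), 4.21 ± 0.85 for Postn (4.82) and 3.16 ± 0.33 for Cthrc1 (4.12), each ± SE with n = 3 per group. Values for Thbs1 (2.40 ± 0.61), Smoc2 (2.10 ± 0.19), Thbs2 (1.99 ± 0.35) and Fn1 (1.96 ± 0.32) followed, beside 2.50, 2.20, 2.39 and 2.98 in MI vs. Sham. Spp1 was above every Sham rat in the treated group, where its lowest value was 82.9 FPKM, which was not so in group MI. The difference between treated and untreated rats in Spp1 was itself not called, as given above. Tnc (1.07 ± 0.63, adjusted p = 0.240) and Sparc (0.32 ± 0.31, adjusted p = 0.479) did not pass, but Tnc was called without Sham replicate 1, at 1.81.

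**Figure D5:**
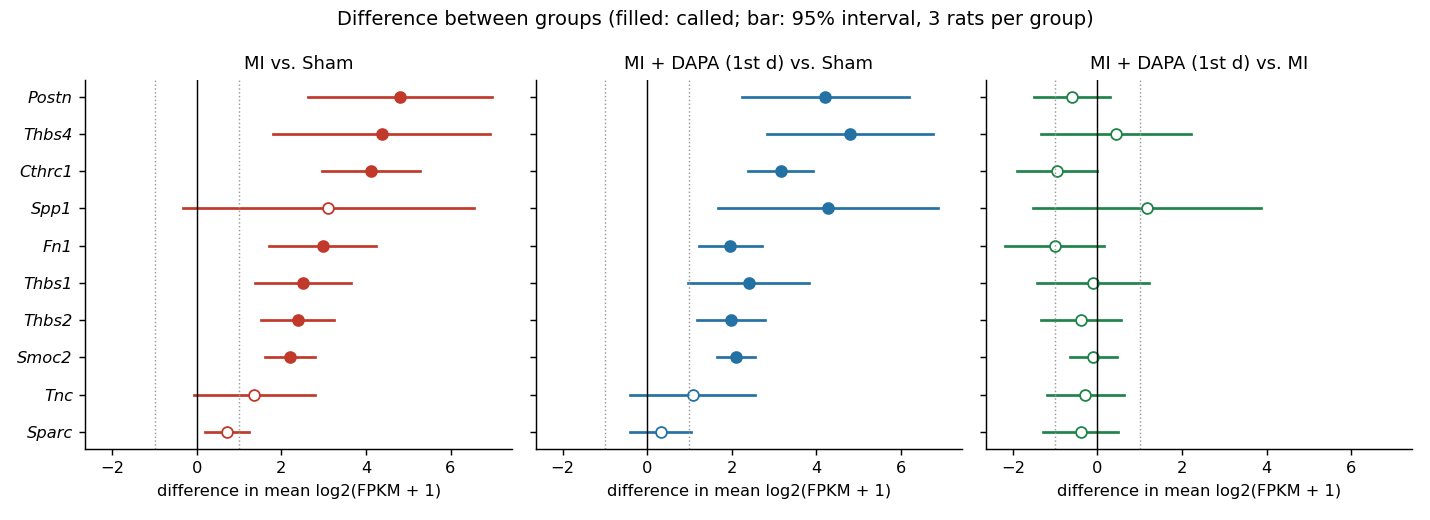
Difference in mean log2(FPKM + 1) of each gene in the 3 comparisons, with 95% limma intervals from 3 rats per group, filled where the gene was called and with dotted lines at a log2 fold change of -1 and 1. Filled points mark 7 genes in MI vs. Sham, 8 in DAPA vs. Sham and 0 in DAPA vs. MI.

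Other genes of the same systems were taken from fixed lists. Of 12 other matricellular genes tested in MI vs. Sham, 8 were called higher and 1 lower, with a median log2 fold change of 2.09 against -0.01 over all genes. Ccn5, a CCN family protein of smooth muscle and fibroblasts, had 5.93, 0.701 and 1.82 FPKM in group Sham and 313, 247 and 148 in group MI, and rose by 6.14 on the log2 scale (adjusted p = 0.000953), more than any of the 10 members. Comp, the thrombospondin of cartilage and tendon, rose by 3.08 (adjusted p = 0.00497), and Ccn2, the connective tissue growth factor, by 2.87 (adjusted p = 0.00594). The gene called lower was Dmp1, an osteopontin relative (-1.79, adjusted p = 0.0068), named after its values were seen. Between treated and untreated rats, 1 of 13 was called lower and 0 higher. That gene, also named after its values were seen, was Ccn3 (-1.37, adjusted p = 0.56 by limma).

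Among 9 genes of fibrin and plasma provisional matrix and its turnover tested in MI vs. Sham, 5 were called higher and 1 lower, with a median of 1.77. Plau, which encodes urokinase, a plasminogen activator, rose by 2.26 (adjusted p = 0.00106), and the fibrin-crosslinking F13a1 by 2.25 (adjusted p = 0.00331). The fibrinogen genes themselves, which the liver expresses, were low in these hearts: Fga was at 0 in all 9 rats, and Fgb and Fgg did not pass the filter. Vitronectin (Vtn), the gene called lower, was at 23.2, 31.9 and 26.8 FPKM in group Sham and 10.7, 10.4 and 11.1 in group MI (-1.26, adjusted p = 0.0019), and was named after its values were seen. With libraries scaled to the same sum, 7 of the 9 were called higher and 0 lower. Limma called 0 of the 9 in either direction in DAPA vs. MI, where 3 had an unadjusted p under 0.05.

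Of 16 receptors for these proteins tested, 10 were called higher and 0 lower in MI vs. Sham, with a median of 1.32. Itgb5, whose αvβ5 integrin binds periostin, osteopontin and vitronectin, rose by 2.99 (adjusted p = 0.00123). Lrp1, the endocytic receptor for thrombospondins, rose by 2.85 (adjusted p = 0.000975), and Itga9, whose integrin binds tenascin-C and osteopontin, by 1.95 (adjusted p = 0.00154). Limma called 0 of the 16 in either direction in DAPA vs. MI, where 1 had an unadjusted p under 0.05 and the median was -0.40.

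Of 13 proteases and processing enzymes tested in MI vs. Sham, 8 were called higher and 0 lower, with a median of 1.45. The gelatinase Mmp2 rose by 3.61 (adjusted p = 0.00125), the collagenolytic cathepsin Ctsk by 3.37 (adjusted p = 0.000953) and the membrane protease Mmp14 by 3.08 (adjusted p = 0.00314). Limma called 0 of the 13 in DAPA vs. MI, where the median was -0.45 and 2 had an unadjusted p under 0.05. Of the 7 fibrillar collagen genes, 6 were called higher in MI vs. Sham and 0 lower, Col1a1 by 5.44, Col1a2 by 4.60 and Col3a1 by 4.53, with a median of 3.11. Between treated and untreated rats, Col1a1 was called lower (-1.15) and 0 were higher, with a median of -0.61. At an adjusted p under 0.05, 0 of the collagens were called lower by limma.

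Relative to the mean of these fibrillar collagens, 3 of the 10 members had a higher mean in MI than in Sham rats and 7 a lower one, with a median of -0.37. Sparc was 2.40 lower, Tnc 1.75 lower, Smoc2 0.91 lower and Thbs2 0.72 lower on that scale, each without overlap between the groups. Cthrc1 was the single member higher without overlap. Treated rats had 8 of the 10 at a higher mean than MI rats relative to the collagens, with a median of 0.30, and all 10 overlapped.

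Finally, each gene was compared with the mean z-score of the 10 members over the 9 rats. Postn (Pearson's r = 0.98), Cthrc1 (0.97) and Thbs2 (0.95) followed that mean most closely, and Sparc (0.67), Spp1 (0.82) and Tnc (0.85) least. Each member is itself part of the mean, which raises its r, so these values only order the members. The 14157 genes compared include the members. Of the other named genes, Pmp22, a membrane protein of peripheral myelin, had the highest r (0.997). Next came the small leucine-rich proteoglycans Bgn (0.989) and Prelp (0.987), the cell-surface proteoglycan Sdc2 (0.988) and Aebp1, a collagen-binding secreted protein (0.987). Pmp22 had 26.0 ± 17.3 FPKM in Sham rats, 146 ± 48.1 in MI rats and 103 ± 13.1 in DAPA rats (SD, n = 3). These r values are descriptions over 9 rats that share the group difference between Sham and infarcted hearts.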

How the data were processed

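Heart RNA of 9 rats, 3 per group (Sham, MI and MI + DAPA (1st d), called DAPA), was sequenced by the authors at day 28 from poly-A selected libraries, with no strand setting stated. FPKM values for 35843 genes were deposited by the authors, with a column for each sample, taken as 1 rat. The submitters' processing notes name HISAT2 2.0.5, StringTie 1.3.3b, featureCounts 1.5.0-p3 and DESeq2, and the genome build is not given in the sources used here. The number of columns not used is 0. Whole reads (within 0.02 of a read) were recovered from the FPKM steps for all 18896 genes above 0 in at least 4 rats.

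From the deposited values, limma 3.58.1 (R 4.3.3) was fitted on log2(FPKM + 1), which understates changes of low genes, for 2 groups at a time, with trend in the empirical Bayes step, over genes that reached FPKM 1 in 3 or more rats of the fit. Genes were called at the study's criteria, taken as unadjusted p under 0.05 and log2 fold change over 1 in size. Benjamini-Hochberg adjusted p-values are over all genes tested. The code was tested on simulated data. The limma p-values set the difference of 2 groups against the spread within them, with 3 samples per group, each taken as 1 rat. The empirical Bayes step moderates that spread over all genes of the fit. For single values per rat, a two-sided exact permutation test was used. Read recovery, summaries and plots used matplotlib 3.10.9, pandas 2.3.3 and numpy 2.4.6 under Python 3.11.15.

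The members and lists were chosen with earlier results of these data known. Named are all 10 members, at most 3 genes per list (called in MI vs. Sham, largest absolute log2 fold change) and the 5 genes with the highest r with the members' mean z-score. One gene that this rule names is not reported here. Alternatives were another pseudocount, no filter, all 9 rats in 1 fit, a replicate block, 4 other scalings, each rat left out, adjusted p-values and no fold threshold. Scaling to all recovered reads was added after seeing the data.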

Additional observations from a re-analysis of the deposited data

How the results depend on the processing

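Between 7 and 10 members were called higher in MI vs. Sham under every alternative run, and between 8 and 10 in DAPA vs. Sham. Leaving out each rat in turn gave 7 to 9 and 8 to 9. All 10 were called with libraries scaled to the same sum or to all recovered reads, where calls over all genes also rose. Under these 2 scalings 8801 and 5855 of 13485 genes were called higher in MI vs. Sham, and 6566 and 4310 of 13359 in DAPA vs. Sham. In DAPA vs. MI, the 0 members called lower became 1 (Cthrc1) with a pseudocount of 0.1, with the mitochondrial genome left out before scaling and without a fold threshold. They became 2 (Cthrc1 and Fn1) with libraries scaled to the same sum or to all recovered reads, and 0 to 3 when each rat was left out, with 3 without MI replicate 3. Of all 13251 genes tested, 147 were called lower in the main fit, and 492 and 270 under those 2 scalings. Without MI replicate 3 it was 153 of 12903. The cause of the changes in the members was not tested. Differences that turned sign there when a rat was left out, none of them called, were Spp1 (from -0.11 without MI replicate 2 to 2.16), Thbs4 (from -0.43 without MI replicate 2 to 1.15), Smoc2 (from -0.33 to 0.10 without MI replicate 1) and Thbs1 (from -0.70 to 0.39 without DAPA replicate 2, and 0.20 without MI replicate 1). Deviations from the group means, over genes at FPKM 1 or more in 3 or more rats, were correlated between rats of different groups. For rats with the same number, correlations were -0.01 to 0.07 in MI vs. Sham, -0.30 to 0.03 in DAPA vs. MI and -0.003 to 0.19 in DAPA vs. Sham. For rats with different numbers they were -0.13 to 0.10, -0.17 to 0.32 and -0.23 to 0.13. No pairing was assumed, and values over all these genes cannot exclude one in the 10 members. A replicate block gave 9, 0 and 9 members called in those comparisons, against 7, 0 and 8 without the block. The block added Spp1 and Tnc to the calls in MI vs. Sham and Tnc in DAPA vs. Sham, and fitting all 9 rats at once added Spp1 and Tnc in MI vs. Sham, at unchanged log2 fold changes of 3.11 and 1.36. Depth limits Cthrc1, Thbs4 and Tnc in group Sham, where single rats had 0 to 4 reads.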

Other observations

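Other cell-type markers moved with the infarct beside the 10 genes, given as values. Of 4 atrial markers, 1 was called higher in MI vs. Sham and 0 lower: Nppa, the atrial natriuretic peptide gene that stressed ventricles re-express, by 4.55 on the log2 scale (adjusted p = 0.00739). Treated against untreated rats, 1 of 3 atrial markers tested was called higher by limma, and 0 at an adjusted p under 0.05. Of 6 lymphocyte markers tested, 3 were called higher in MI vs. Sham and 0 lower, Jchain of antibody-secreting cells by 6.95 (adjusted p = 0.0123), Cd4 by 4.51 (adjusted p = 0.00134) and Cd3e by 2.23 (adjusted p = 0.0435). The comparison DAPA vs. MI had 3 of 6 called lower and 0 higher by limma, 0 of them at an adjusted p under 0.05.

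Of 10 cardiomyocyte markers in MI vs. Sham, 3 were called lower and 1 higher. Myh6, the adult heavy chain of rat myosin, differed by -2.43 (adjusted p = 0.0113) and Tnni3, cardiac troponin I, by -2.32 (adjusted p = 0.0157), while Myh7, the fetal heavy chain, rose by 1.68 (adjusted p = 0.0412). With libraries scaled to the same sum 5 were called higher and 0 lower. In DAPA vs. MI, 2 of the 10 were called higher, 0 of them at an adjusted p under 0.05, and all 10 differences were positive. Of 4 epicardial and mesothelial markers tested in MI vs. Sham, Msln (3.55) and Aldh1a2 (1.89) were called higher and Wt1 (-2.12) lower. In the chondrocyte and tendon list, 1 of 4 was called higher, Cilp2 (2.35), and Fabp4, the single adipocyte marker tested and also an endothelial gene, was called lower (-3.57).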
